A study of Mus musculus with 20 samples.

Results

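Temporal identity factors of the retina were represented by 7 transcription factor genes, Ikzf1, Ikzf4, Casz1, Pou2f1, Pou2f2, Foxp1 and Foxp4, taken by symbol from the 23260 genes of a single-cell count table. All 7 were found there. They form a list fixed by their known or proposed role and not by a threshold on their values. Their unique molecular identifiers (UMIs, each marking 1 captured transcript) were summed in each library and each cell type named by the authors, above all in progenitors and in neurogenic cells, which are cells that leave the cell cycle to become neurons.

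The tissue was mouse retina of wildtype CD1 animals kept as explants, and all groups share that background and the culture. By their titles the 20 libraries fall into a GFP control (4 libraries at each age), MEIS1 (2 at each age), MEIS2 (2) and a combination of both (2), delivered by electroporation, at postnatal day 2 (P2) and postnatal day 5 (P5). MEIS1 and MEIS2 are homeodomain transcription factors of retinal progenitors, and the series title names temporal patterning and neurogenesis in late progenitors as its subject. Only GFP-positive cells were taken, so that the cells of each library are those that took up DNA, and each of the 79009 cells holds at least 1 GFP UMI. The series text gives the vector as pCAGIG, whose CAG promoter is active in most cell types, but it names NR2F1 and NR2F2 as the inserts and gives 2 or 5 days of treatment where the labels give an age. Nothing states that the libraries of a group came from separate animals or cultures, so p-values measure the spread between these libraries, which may be technical.

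Retinal progenitors make their cell types in an order, with ganglion cells, cones and horizontal cells early and rods, bipolar cells and Müller glia late, and temporal identity factors are transcription factors that set which types a progenitor can make at a given time. Ikzf1 (Ikaros) is a zinc finger factor that gives early competence, and Ikzf4 is its paralog, known in cone and Müller glia formation. Casz1, a zinc finger factor related to fly castor, favours rods over earlier types and over glia and acts with NuRD and Polycomb complexes. Pou2f1 and Pou2f2 are POU homeodomain factors that favour cones, Foxp1 is a forkhead factor of early progenitors, and Foxp4 is its paralog, expressed in the developing retina. Counts from the 3′ end do not separate transcript variants, so each value is for the gene as a whole.

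In the GENCODE annotation of the GRCm38 (mm10) build, Casz1 lies on chromosome 4 (148804429 to 148954889, forward strand), Foxp4 on chromosome 17 (47867133 to 47924645, reverse strand) and Foxp1 on chromosome 6 (98925338 to 99522721, reverse). Pou2f1 lies on chromosome 1 (165865154 to 166002678, reverse), Pou2f2 on chromosome 7 (25087344 to 25179726, reverse), Ikzf4 on chromosome 10 (128630843 to 128645991, reverse) and Ikzf1 on chromosome 11 (11685003 to 11772926, forward). Casz1 and Foxp4 are the members on which the age results turn, and both were high in photoreceptors, so the 250 bases before their start sites are shown, 5′ to 3′ on the gene's strand, from RefSeq on GRCm38.p6. The capitals mark TAATCC, the core bound by the photoreceptor factors CRX and OTX2, or its reverse complement GGATTA. The windows are chr4:148889097-148889346 (forward, an inner Casz1 start), chr4:148804142-148804391 (forward, the outer Casz1 start) and chr17:47924633-47924882 (reverse, Foxp4).
Casz1 inner start: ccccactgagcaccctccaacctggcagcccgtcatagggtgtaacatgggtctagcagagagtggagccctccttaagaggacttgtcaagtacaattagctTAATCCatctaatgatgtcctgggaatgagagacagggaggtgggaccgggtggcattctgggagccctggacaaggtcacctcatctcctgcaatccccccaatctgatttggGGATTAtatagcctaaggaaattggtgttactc
Casz1 outer start: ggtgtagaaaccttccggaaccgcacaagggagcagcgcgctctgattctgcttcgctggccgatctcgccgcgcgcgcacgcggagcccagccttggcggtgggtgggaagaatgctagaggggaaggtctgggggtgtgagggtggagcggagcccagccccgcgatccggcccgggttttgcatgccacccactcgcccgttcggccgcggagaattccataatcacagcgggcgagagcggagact
Foxp4: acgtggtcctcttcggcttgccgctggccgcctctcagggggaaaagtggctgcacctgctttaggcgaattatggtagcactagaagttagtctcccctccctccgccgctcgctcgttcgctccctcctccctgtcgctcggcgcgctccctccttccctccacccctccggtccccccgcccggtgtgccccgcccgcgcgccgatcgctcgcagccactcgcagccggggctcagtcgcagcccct

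The inner Casz1 window holds 2 matches to the core, beginning 147 and 33 bases before the start, and neither other window holds it. Of the 12 windows found for 6 members, 1 holds this core. Among 32851 such windows of all genes, 6.25% hold the core on either strand. The 12 windows found for 6 members were also searched for TGACAG, a core bound by MEIS factors, and for the octamer ATGCAAAT bound by POU factors. The MEIS core is in 1 of them, a Foxp1 window (chr6:99266516-99266765), against 15.9% of all windows, and the octamer is in none, against 1.6%. These letters are a description, since no binding was measured here.

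The 20 libraries held 1625 to 17739 cells each, 79009 in all, and 2376875 to 141540352 UMIs. P2 MEIS2 replicate 2 stood apart, with 992 UMIs in its median cell (2416 to 14199 in the other libraries), 10.0% of UMIs from Malat1 (2.53% to 4.41% elsewhere) and 0.415% from mitochondrial genes, the lowest of the 20, so the P2 results on MEIS below are also given without it. Library names at the start of the cell barcodes equalled the titles in 10 of 20 libraries and named the same group under another number in 8. In the other 2 they named another group: cells of P2 control 1 carry the name of a P2 combination library, and cells of P2 combination replicate 2 that of a P2 control. The treatment tags name MEIS1 for all 4 single-construct libraries at P2 and MEIS2 for all 4 at P5, against the titles. The titles were followed throughout. Meis1 in progenitors was 2260 ± 216 CPM (UMIs of the gene scaled to a common library total; SD, n = 2) in the P2 MEIS1 libraries and 219 ± 72.6 (n = 4) in controls, and Meis2 was 1137 ± 511 (n = 2) in the MEIS2 libraries and 137 ± 31.1 (n = 4) in controls. At P5 Meis1 was 3690 ± 410 CPM in the libraries titled MEIS1 and 254.5 ± 80.96 in those titled MEIS2, and Meis2 was 59.9 ± 14.6 and 903 ± 190.5 (n = 2 each). P2 control 1 was the highest of these controls, with Meis1 at 327 CPM (171 to 194 in the other 3) and Meis2 at 182 CPM (112 to 128), while combination replicate 2 had 862 CPM of Meis1 and 888 of Meis2. Groups taken from the barcodes in place of the titles gave the same number of members called in all 15 comparisons rerun that way. But for all MEIS libraries at P2 they called 414 genes in progenitors, 1053 in neurogenic cells and 285 in rods. By the titles these counts were 2, 0 and 0. The main P2 results are also given without P2 control 1. No pair of libraries shared more than 30 cell barcodes. In the P5 libraries numbered 1, of every group, mitochondrial genes gave 7.18% to 10.0% of UMIs. In the other P5 libraries they gave 3.41% to 5.225%. A shared preparation of these libraries is not stated, and the main fits hold no block for it. The authors' type names held for most markers: 8 of 10 progenitor markers, 8 of 10 neurogenic markers, 7 of 9 rod markers and 6 of 8 amacrine markers were highest in their own type, but only 4 of 8 for Müller glia.

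The first question was where each factor was expressed in control tissue. Casz1 was highest in rods and then cones, Foxp4 was highest in rods at P2 and level between bipolar cells and rods at P5, among the 6 types with enough cells Pou2f2 and Ikzf4 were highest in amacrine cells, Pou2f1 and Foxp1 were present in all types, and Ikzf1 was almost absent. Of these 6 types, progenitors held the highest mean of none of the genes other than Ikzf1 at either age. Bipolar cells at P2 are left out of these orders, since only P2 control 1 held at least 20 of them (44 cells), and 9 bipolar markers summed to 80.6 CPM there, against 1843 to 4831 CPM in bipolar cells of P5 controls. Casz1 in those 44 cells was at 496 CPM. Starburst amacrine cells, which the authors name apart from other amacrine cells, are left out too, with 29 cells in P2 control 1, 26 in P5 control 1 and under 20 in every other control. Ikzf4 there was at 39.4 CPM (12 UMIs) in the P2 library and 6.83 (2 UMIs) in the P5 library, and Pou2f2 at 108 (33 UMIs) and 17.1 (5 UMIs), so at P2 both lay above the mean of the amacrine cells given below. Over all cells Casz1 gave 176952 UMIs, Pou2f1 79907, Foxp1 68139, Foxp4 21277, Pou2f2 11857, Ikzf4 7321 and Ikzf1 102. Levels below compare types in plain CPM, and types of the same library share its dissociation and free RNA, so the order of types is described without a test.

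**Figure D1:**
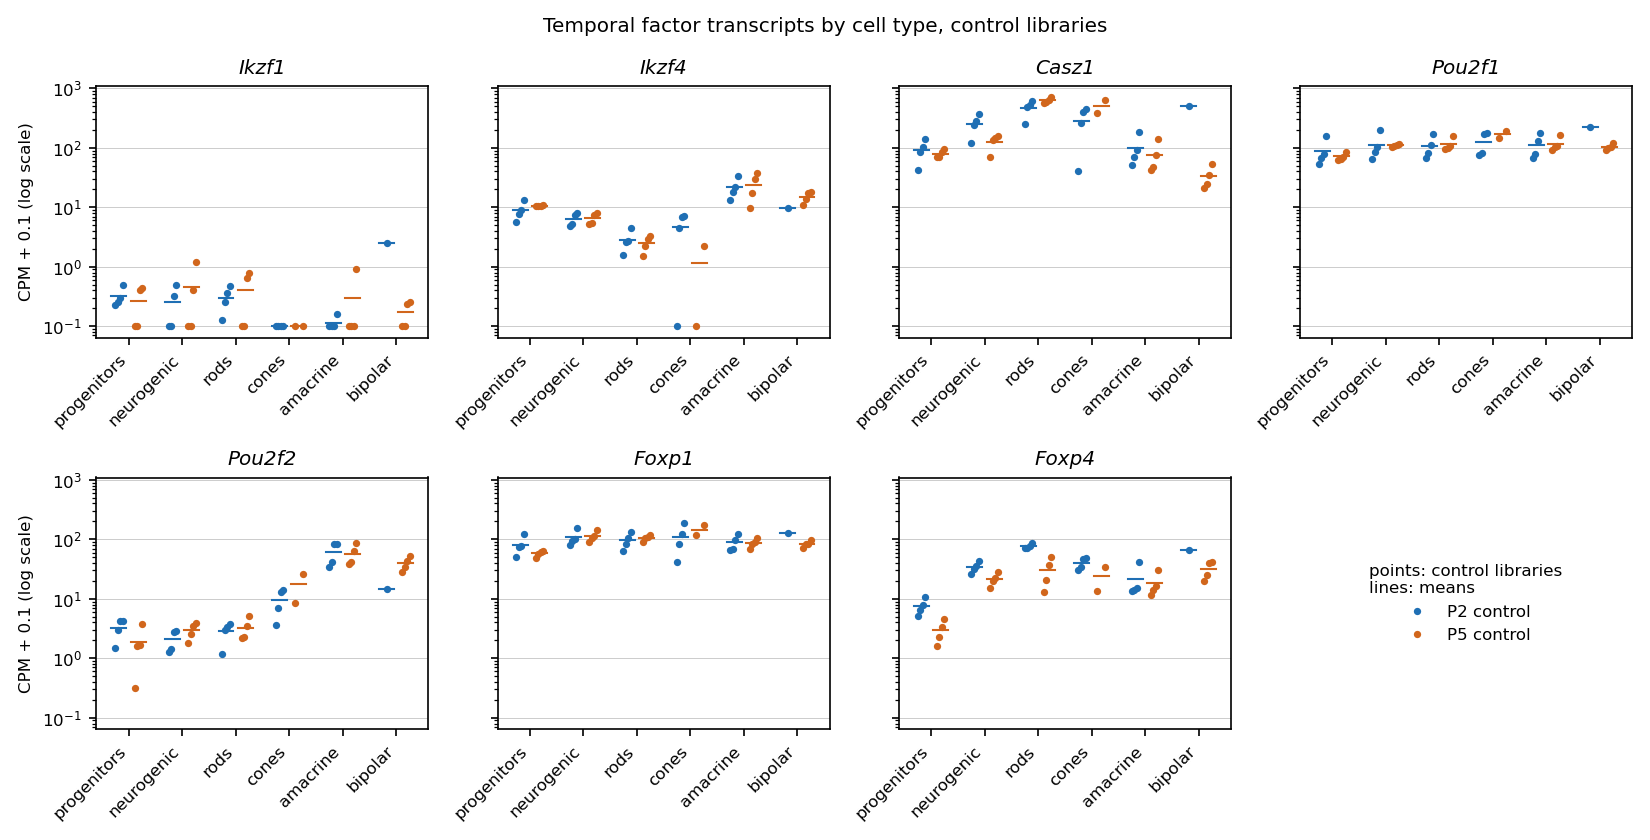
Levels of the 7 factors (CPM + 0.1, log axis) in 6 cell types, 1 point for each control library with at least 20 cells of the type, lines at means, blue P2 and orange P5. Casz1 is higher in neurogenic cells than in progenitors and higher still in rods, Pou2f2 is highest in amacrine cells of the 6 types drawn, and Ikzf1 stays near 0.

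Casz1 gave the most UMIs of the factors over all cells, while Pou2f1 was above it in amacrine cells at both ages and in P5 bipolar cells. In P2 controls it averaged 471 ± 157 CPM in rods, 287 ± 183 in cones, 252 ± 101 in neurogenic cells, 98.8 ± 59.1 in amacrine cells and 92.9 ± 41.25 in progenitors (SD, n = 4 each). In P5 controls it averaged 627 ± 55.6 in rods, 513 ± 171 in cones (n = 2), 127 ± 39.7 in neurogenic cells, 79.7 ± 11.96 in progenitors, 75.8 ± 44.3 in amacrine cells and 33.5 ± 14.8 in bipolar cells (n = 4 each). Rods were above neurogenic cells and above progenitors within every one of 20 libraries, and neurogenic cells were above progenitors in 17 of 20. Progenitors and amacrine cells overlapped at both ages, and so did rods and cones. Cones and neurogenic cells overlapped at P2. In control amacrine cells 9 rod markers summed to 461.5 to 624.9 CPM at P2 and 512.9 to 2346 at P5. In control progenitors they summed to 147.7 to 359.9 and 102.3 to 378.1 CPM. The authors' cone cluster held 5921 CPM of the rod markers and 4600 CPM of the cone markers, pooled over controls. The part of rod RNA in the Casz1 level of amacrine cells and of cones was not tested.

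Because rods hold fewer UMIs than progenitors, each cell was also thinned to 2000 UMIs, leaving out shallower cells. Of these thinned cells, 54.3% of P2 control rods had a Casz1 UMI, 34.7% of neurogenic cells and 14.9% of progenitors, and at P5 the shares were 67.55%, 19.7% and 14.4%. Unthinned, the shares were 64.85% of rods, 60.9% of neurogenic cells and 39.5% of progenitors at P2, and 84.2%, 54.8% and 70.0% at P5. The lowest of the thinned shares over types was 5.225%, in P5 bipolar cells, whose median cells held 6941 to 15690 UMIs, against 2463 to 7053 in P5 rods. Shallow cells left out numbered 2823 in P2 rods, 2079 in P5 rods, 158 in P2 progenitors and 6 in P5 progenitors.

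Foxp4 was also high in rods and lowest in progenitors. In P2 controls it averaged 76.85 ± 7.355 CPM in rods, 39.9 ± 8.74 in cones, 33.8 ± 7.19 in neurogenic cells, 21.1 ± 13.75 in amacrine cells and 7.45 ± 2.42 in progenitors (n = 4 each). In P5 controls it averaged 31.5 ± 10.6 in bipolar cells, 30.2 ± 17.1 in rods, 23.6 ± 14.7 in cones (n = 2), 21.3 ± 5.275 in neurogenic cells, 18.0 ± 8.23 in amacrine cells and 2.88 ± 1.35 in progenitors (n = 4 otherwise). Rods, neurogenic cells and amacrine cells were each above progenitors in 20 of 20 libraries, and bipolar cells were above amacrine cells in 12 of 12. Müller glia, outside these types, were at 6.67 CPM in P2 control 1 (40 cells) and 13.3 CPM in P5 control 3 (46 cells). At P2 the rods of all 4 controls lay above the cones of all 4, whereas at P5 each type overlapped with the next from bipolar cells through rods, cones and neurogenic cells to amacrine cells.

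Within rods Foxp4 was graded over the authors' clusters and Casz1 was level. Rod clusters 0, 1 and 2 had successively higher levels of the rod gene Gngt1 (249, 712 and 2139 CPM, pooled over controls) and successively lower levels of Otx2, a photoreceptor and bipolar fate factor (1452, 1092 and 645 CPM). Foxp4 in P2 controls averaged 94.6 ± 18.5 CPM in cluster 0, 66.5 ± 8.17 in cluster 1 and 21.3 ± 3.51 in cluster 2, and in P5 controls 51.4 ± 29.9, 16.4 ± 9.15 and 10.1 ± 1.17 (n = 4 each). The order from cluster 0 down to 1 and to 2 held in 8 of 8 control libraries. Casz1 in the same clusters averaged 483 ± 173, 460.5 ± 150 and 462 ± 145.5 CPM at P2 and 612 ± 22.0, 615 ± 64.6 and 645 ± 96.9 at P5, and cluster 0 was above cluster 2 in 4 of 8 control libraries. Clusters were drawn from all genes, these included, so these values are a description.

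The 2 neurogenic clusters also differed. Cluster 11 held more Ccnd1, the cyclin D1 gene (465 against 22.1 CPM pooled over controls), and cluster 4 held more Neurod1, a neuronal differentiation factor (1368 against 321 CPM). In P2 controls Casz1 averaged 153.5 ± 79.1 CPM in cluster 11 and 283 ± 112 in cluster 4, and Foxp4 17.5 ± 5.55 and 38.7 ± 10.2. In P5 controls Casz1 averaged 67.7 ± 7.53 and 166 ± 56.2, and Foxp4 5.55 ± 4.11 and 33.4 ± 8.79. Both genes were higher in cluster 4 than in cluster 11 in 8 of 8 control libraries.

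**Figure D2:**
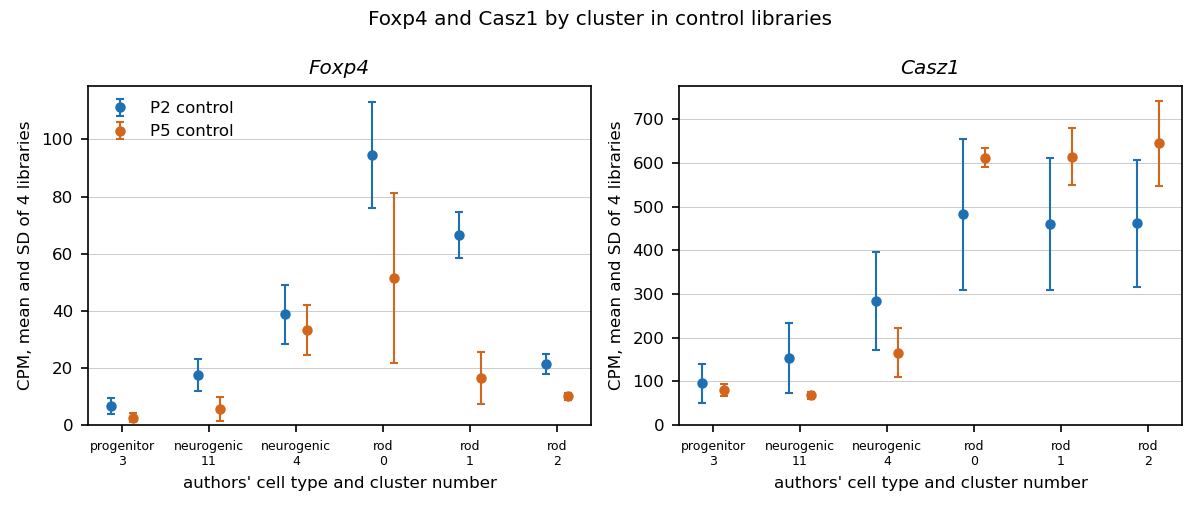
Foxp4 (left) and Casz1 (right) in CPM in the authors' clusters, mean and SD of 4 control libraries, blue P2 and orange P5. Foxp4 peaks in rod cluster 0 and declines to rod cluster 2, while Casz1 stays level across the 3 rod clusters.

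Of the same 6 types, Pou2f2 was highest in amacrine and bipolar cells. It averaged 60.6 ± 27.15 CPM in amacrine cells of P2 controls and 57.5 ± 21.6 at P5, 39.3 ± 9.855 in bipolar cells at P5, and 9.33 ± 5.06 in cones at P2 (n = 4 each). In progenitors it was 3.13 ± 1.30 CPM at P2 and 1.75 ± 1.46 at P5, which overlapped with rods and neurogenic cells. Amacrine cells were above progenitors, neurogenic cells and rods in 20 of 20 libraries. Among amacrine clusters, Pou2f2 was highest in cluster 9, with 120 ± 20.3 CPM (n = 6), above cluster 6 (49.9 ± 15.5, n = 8) and cluster 7 (64.5 ± 27.4, n = 6) in 6 of 6 control libraries with both. Cluster 9 held 190 CPM of Gad1, which makes the transmitter GABA, against 3.37 in cluster 6 and 40.2 in cluster 7. Within progenitors, Pou2f2 was 5.64 ± 2.59 CPM (n = 5) in cluster 12, whose cells express the division gene Top2a at 1118 CPM, and 1.43 ± 0.642 (n = 8) in cluster 3, where Top2a was 3.25 CPM. Cluster 12 was the higher in 5 of 5 control libraries with both.

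Ikzf4 was high in amacrine cells and low in photoreceptors. It averaged 21.5 ± 8.46 CPM in amacrine cells of P2 controls and 23.45 ± 12.2 at P5, 14.9 ± 3.21 in P5 bipolar cells, and 8.89 ± 3.28 and 10.5 ± 0.143 in progenitors at P2 and P5. It was lower in neurogenic cells (6.30 ± 1.555 and 6.47 ± 1.39) and in rods (2.77 ± 1.22 and 2.39 ± 0.807; n = 4 each). Rods were below progenitors in 20 of 20 libraries, neurogenic cells were below progenitors in 19 of 20, and amacrine cells were above rods in 20 of 20. Amacrine and bipolar cells overlapped at P5.

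Pou2f1 and Foxp1 were found at similar levels in most types, with cones at the high end and progenitors near the low end. Pou2f1 averaged 89.0 ± 46.7 CPM in P2 control progenitors and 71.5 ± 10.35 at P5, and between 104 and 116 CPM in rods, neurogenic, amacrine and P5 bipolar cells. In cones it averaged 127 ± 55.6 CPM at P2 (n = 4) and 169.5 ± 34.2 at P5 (n = 2). Foxp1 averaged 81.2 ± 29.25 CPM in P2 control progenitors and 57.9 ± 6.675 at P5, and 107 ± 33.7 and 112 ± 21.9 in neurogenic cells (n = 4 each). In cones it averaged 109 ± 63.8 CPM at P2 (n = 4) and 145 ± 37.1 at P5 (n = 2). Müller glia, held by 1 control library at each age, had 66.7 and 46.5 CPM of Pou2f1 and 90.1 and 54.5 of Foxp1. Rods and neurogenic cells were above progenitors in 20 of 20 libraries for both genes. At P5 all 4 control values of progenitors lay below all 4 of bipolar cells for both genes, while at P2 progenitors overlapped with rods for Pou2f1 and with amacrine cells for Foxp1.

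Ikzf1 was close to the limit of detection. Its 102 UMIs came from 90 of 79009 cells in 19 of 20 libraries, with 33 UMIs in progenitors (0.212 CPM), 32 in rods (0.157 CPM), 17 in neurogenic cells (0.162 CPM), 11 in amacrine cells (0.102 CPM) and 8 in bipolar cells (0.149 CPM). Cones had 0 of 3738663 UMIs, which allows a level of up to 0.802 CPM for counting error alone, taking 3 counts as the limit. Ikzf1 is also a leukocyte gene, and 1 of the 90 cells carried UMIs of 3 or more of 10 leukocyte markers, as did 345 of the 78919 cells without an Ikzf1 UMI. Ikzf1 did not pass the filter on low counts in any type, so the remaining 6 members entered the tests.

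The next question was how the factors differed between P2 and P5 in control tissue, a contrast of 4 against 4 libraries. In it stated age, time in culture and any batch between the ages cannot be told apart. Casz1 and Foxp4 were lower at P5 in neurogenic cells, with log2 fold changes of -1.05 and -0.77, and Foxp4 was lower at P5 in rods, with -1.43. No member passed the test in progenitors or in amacrine cells, and none was called higher at P5. Calls are from edgeR's quasi-likelihood test, with p-values adjusted over all genes of a type by Benjamini and Hochberg and a threshold of 0.05, and levels here are CPM scaled by TMM within the type. In summed counts, fewer cells with a transcript and fewer transcripts in each cell cannot be told apart.

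**Figure D3:**
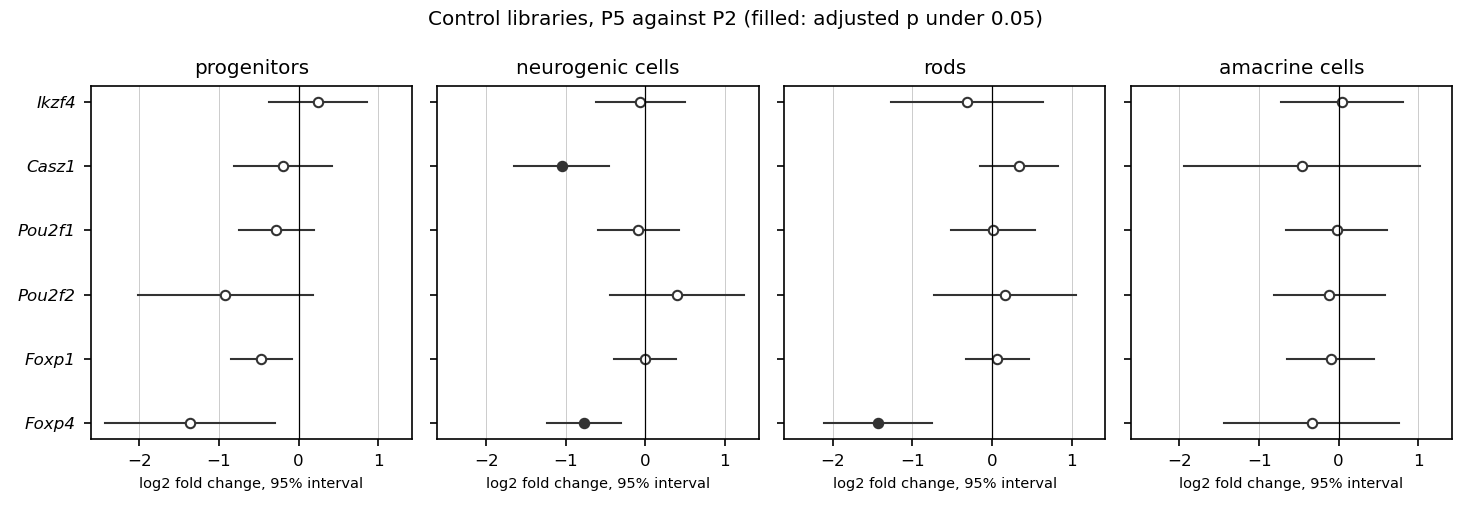
P5 against P2 in control libraries, log2 fold change with 95% confidence interval for 6 members in 4 cell types; filled points have an adjusted p under 0.05. Filled points are Casz1 and Foxp4 in neurogenic cells and Foxp4 in rods, all below 0.

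In rods, Foxp4 was at 88.25, 70.4, 80.9 and 84.9 CPM in P2 controls 1 to 4 and at 20.1, 12.9, 51.2 and 35.9 CPM in P5 controls 1 to 4. All 4 P5 libraries lay below all 4 at P2, as did 7.89% of 14786 genes tested. The log2 fold change was -1.43 (SE 0.32, 95% interval -2.11 to -0.76, adjusted p 0.00693, edgeR), and it stayed called with each library left out (adjusted p up to 0.0260), with -1.39 (adjusted p 0.0132) without P2 control 1. Foxp4 was 1 of 6 members called, where 13.2% of genes were (1949 genes, and 1124 without P5 control 2). Casz1 in rods was at 286 to 628 CPM at P2 and 578 to 698 at P5, a log2 fold change of 0.34 (SE 0.23, adjusted p 0.373; 0.48 and 0.190 without P2 control 1); 2 of the 4 P5 libraries lay above every P2 library. The share of thinned rods with a Foxp4 UMI was 13.5% ± 0.582 at P2 and 4.71% ± 2.72 at P5 (20.3% and 10.2% unthinned). In progenitors, the lowest of the 6 types, the thinned shares were 1.34% and 0.553%.

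Other features of the rods moved with Foxp4. All 9 rod markers rose between P2 and P5, with a summed level of 1902 to 4787 CPM in P2 controls and 9699 to 17580 at P5, progenitor markers summed to 77.5 to 130 CPM and 32.1 to 55.6 CPM (3 of 10 called lower), pigment epithelium markers to 32.9 to 81.25 and 96.2 to 167 CPM (Mitf and Dct called higher), and microglia and leukocyte markers to 9.10 to 33.3 and 24.3 to 132 CPM. GFP fell by 2.46 on the log2 scale (edgeR adjusted p 0.0152), and the share of rods in cluster 2 was 16.5% ± 7.24 at P2 and 36.6% ± 4.55 at P5. Their part in the result was not tested. Foxp4 was also compared between the ages within each rod cluster. The log2 fold change was -2.11 in cluster 1 (SE 0.33, edgeR adjusted p 7.36e-04). It was -1.03 in cluster 0 (SE 0.34, edgeR adjusted p 0.0597) and -1.02 in cluster 2 (SE 0.29, edgeR adjusted p 0.0511). These cluster fits were added after the data had been seen, and only that in cluster 1 passed the threshold. Of all genes 10.9% were called in cluster 0, 8.82% in cluster 1 and 3.66% in cluster 2.

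In neurogenic cells, Casz1 was at 353, 256, 148 and 305.5 CPM in P2 controls 1 to 4 and at 165, 73.6, 133.5 and 143 CPM at P5. Of the P5 libraries 3 of 4 lay below every P2 library, and P2 control 3 overlapped with P5. The log2 fold change was -1.05 (SE 0.29, 95% interval -1.65 to -0.45, edgeR adjusted p 0.0251). Foxp4 was at 41.3, 37.3, 31.25 and 34.75 CPM at P2 and at 22.9, 16.2, 19.45 and 27.6 CPM at P5, with no overlap, which 4.59% of 13745 genes shared in this direction. Its log2 fold change was -0.77 (SE 0.22, 95% interval -1.23 to -0.30, edgeR adjusted p 0.0362). These were 2 of 6 members called, where 9.27% of genes were called.

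Both neurogenic calls were close to the threshold. Neither was called without TMM factors, and Foxp4 was not called with replicate number as a block. In edgeR, Casz1 was no longer called without P2 control 1 (adjusted p 0.0598), P2 control 2 (0.0501), P2 control 4 (0.0684) or P5 control 2 (0.0864), with log2 fold changes from -1.27 to -0.86 over the 8 fits. Foxp4 stayed called only without P2 control 3 (adjusted p 0.0433) or P5 control 4 (0.0262), and was not called without P2 control 1 (0.0766), 2 (0.0788) or 4 (0.0619) or P5 control 1 (0.0589), 2 (0.120) or 3 (0.0907), with log2 fold changes from -0.90 to -0.65. Within cluster 11 alone both were called, Casz1 at a log2 fold change of -1.22 (edgeR adjusted p 0.00540) and Foxp4 at -1.81 (adjusted p 0.0198), where 1261 of 11413 genes were called. Within cluster 4 neither was, where 6.55% of genes were, with -0.88 for Casz1 (adjusted p 0.0929) and -0.36 for Foxp4 (adjusted p 0.494). Cluster 11, which the authors count as neurogenic, held more of the progenitor markers (2884 CPM summed over the list and pooled over controls) and Müller glia markers (4794 CPM) than of the neurogenic markers (1865 CPM), and in cluster 4 these sums were 848, 724 and 1666 CPM. These fits were added after the data had been seen, and the difference between the clusters was not tested.

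Neurogenic cells changed in other ways between the ages. Of 8 Müller glia markers 5 rose, among them the glial genes Rlbp1 (log2 fold change 4.59), Apoe (2.87) and Clu (2.54), and their summed level was 595 to 886 CPM in P2 controls and 3094 to 4988 at P5. Of 10 neurogenic markers 4 fell, among them Atoh7 (-4.38), the ganglion cell competence factor, and Dll4 (-1.76), a Notch ligand, and their summed levels of 1419 to 3081 CPM at P2 and 820 to 2239 at P5 overlapped. Of 10 progenitor markers 5 rose and 1 fell, with sums of 506 to 1348 and 1048 to 2731 CPM. Every P5 control thus held more of the glial than of the neurogenic markers in the cells the authors named neurogenic, and every P2 control held less. The lists hold different genes, and the glial list is not glial alone: progenitor cluster 3 held 7920 CPM of it, pooled over controls. The summed rod markers, at 171 to 425 CPM at P2 and 216 to 632 at P5, overlapped. The bipolar markers did not overlap, at 83.5 to 134 CPM and 215 to 413, with Cabp5 (4.23), Isl1 (2.34) and Grm6 (7.945) called higher of 9, nor did the horizontal markers, at 203 to 365 and 491 to 584 CPM. Of 8 amacrine markers Gad2 (-1.04), Tfap2c (-2.94) and Tfap2a (-2.88) fell, with sums of 38.4 to 118 and 18.9 to 46.7 CPM. Of 10 microglia and leukocyte markers P2ry12 (1.77) was called higher, and of 6 endothelial markers Flt1 (4.12). Cluster 4 was 75.0% ± 2.46 of neurogenic cells at P2 and 62.0% ± 8.03 at P5 (n = 4 each). The part of these shifts in the Casz1 and Foxp4 results was not tested.

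In progenitors none of the 6 members tested was called, where 17.5% of genes were (2602 genes, and 1708, 1573, 1665 and 1651 without P2 controls 2 and 3 and P5 controls 1 and 2). Foxp4 was at 9.92, 6.50, 6.035 and 8.25 CPM in P2 controls and at 5.14, 1.62, 3.21 and 2.18 CPM at P5, counted from 31 to 344 UMIs at P2 and 7 to 38 at P5. All 4 P5 libraries lay below all 4 at P2, as did 8.32% of genes, and the log2 fold change was -1.36 (SE 0.51, 95% interval -2.43 to -0.30, edgeR adjusted p 0.0704; -1.20 and 0.137 without P2 control 1). It was called by DESeq2 (-1.37, adjusted p 0.0425) and by edgeR on the control libraries alone (-1.33, adjusted p 0.0343), and in none of the 8 fits that left out a library (adjusted p 0.0582 to 0.185). Foxp1 was at 112, 77.3, 60.35 and 83.2 CPM at P2 and at 55.1, 62.5, 62.35 and 61.4 at P5, a log2 fold change of -0.47 (SE 0.18, edgeR adjusted p 0.0825), which was called without P2 control 3 (-0.61, adjusted p 0.0372) and was -0.29 (adjusted p 0.240) without P2 control 1. Casz1 was at 130.5, 87.8, 49.4 and 111.5 CPM at P2 and 78.3, 76.9, 91.6 and 84.75 at P5, and all P5 values lay within the P2 range (log2 fold change -0.20, 95% interval -0.81 to 0.42, adjusted p 0.685; 0.001 without P2 control 1). The others were Pou2f2 at -0.92 (-2.02 to 0.18), Pou2f1 at -0.28 (-0.75 to 0.19) and Ikzf4 at 0.25 (-0.37 to 0.86), with edgeR adjusted p of 0.228, 0.404 and 0.592, and without P2 control 1 they were at -0.80, 0.06 and 0.44. The median of the 6 was -0.37, beside -0.04 over all genes.

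The progenitors around them did change. Of 16 early progenitor genes, 10 fell and 1 rose, with the largest changes in Atoh7 (log2 fold change -5.26), Foxn4 (-3.14), a factor of amacrine and horizontal competence, and Fgf15 (-2.61), a growth factor of early progenitors. Hmga2 rose (2.29) against the direction of that list. Of 18 late progenitor genes 6 rose, led by Crym (3.10), Car2 (2.60) and Rlbp1 (2.36), and 1 fell. Of 11 photoreceptor fate genes 3 fell, namely Otx2 (-2.665), Neurod1 (-2.63) and Prdm1 (-2.57), the last a factor that keeps photoreceptors from bipolar fate. The genes named from these 3 lists had edgeR adjusted p-values of 0.0238 or less. Beside them, 7 of 8 Müller glia markers rose, with a summed level of 1751 to 4092 CPM at P2 and 10090 to 17770 at P5, while the 10 progenitor markers summed to 1987 to 4065 and 2399 to 3353 CPM. The P5 cells named progenitors by the authors thus held more of the glial than of the progenitor markers, and so did cluster 3 (7920 and 2656 CPM pooled over controls). In the authors' Müller glia cluster these sums were 7225 and 1382 CPM, so the glial sum does not separate the 2 types. The lists hold different genes, and Rlbp1 is in both the late progenitor and the glial list. The summed cone markers were at 107 to 154 and 36.2 to 68.1 CPM, with Gngt2 lower (-2.25), the amacrine markers at 37.9 to 110 and 14.3 to 34.1, with Tfap2a (-2.99) and Tfap2c (-2.66) lower, and the horizontal markers were at 235 to 404 and 569 to 686 CPM. The summed endothelial markers were at 3.78 to 8.12 and 43.4 to 89.2 CPM, with Flt1 called higher (5.43) and Cldn5 lower (-4.10) of 6. Of 10 microglia and leukocyte markers C1qa (3.12), C1qb (3.61) and Aif1 (3.23) rose (edgeR adjusted p up to 0.0477), with sums of 10.1 to 20.97 and 19.3 to 84.7 CPM, and cluster 3 was 68.4% ± 18.75 of progenitors at P2 and 90.15% ± 10.8 at P5. The 9 rod markers, of which none was called, summed to 148 to 360 CPM at P2 and 102 to 378 at P5.

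Of the complexes that act with Casz1, NuRD had 2 of 14 subunits called in progenitors, 1 in neurogenic cells and 3 in rods, and Polycomb had 1, 0 and 2 of 14. Over all genes 17.5%, 9.27% and 13.2% were called in these types. Of the NuRD subunits, Chd3, a chromatin remodeller, rose in progenitors (log2 fold change 0.67) and in neurogenic cells (0.79), and the histone binding subunit Rbbp4 fell in progenitors (-0.71) and in rods (-0.50), where Mta1 (-0.84) and Mta3 (-1.03) fell too. Of the Polycomb subunits, Cbx2 fell in progenitors (-1.40), Pcgf1 rose in rods (0.84) and Pcgf2 fell there (-1.32), and none was called in neurogenic cells. Each of these had an edgeR adjusted p of 0.0463 or less.

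Of the paralogs of the members, Foxp2 shared the direction of Foxp4. It fell in progenitors (log2 fold change -1.12, SE 0.26, edgeR adjusted p 0.00850) and in rods (-1.77, SE 0.37, adjusted p 0.00500), and in neurogenic cells it was at -0.86 (adjusted p 0.0685). Ikzf2, Ikzf5 and Pou2f3 were called in none of the types in which they were tested, with Ikzf5 at -0.62 in progenitors (edgeR adjusted p 0.144) and Ikzf2 at 0.37 in rods (adjusted p 0.176). Foxp3 was tested in rods alone and not called, and Ikzf3 did not pass the filter in any of the 4 types.

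In amacrine cells none of the 6 members tested was called, and 0.397% of 13097 genes were. That share rests on single libraries: 52 genes were called with all 8 control libraries, 155 without P5 control 3, and 8, 15, 28, 33 and 29 without P2 controls 1, 3 and 4 and P5 controls 2 and 4, while no member was called in any of these fits. Pou2f2 there was at 83.5, 79.9, 47.6 and 36.2 CPM in P2 controls and at 84.5, 60.9, 39.6 and 40.7 at P5, and Ikzf4 at 33.3, 20.7, 15.55 and 19.1 and at 29.2, 16.7, 9.91 and 36.0. Both genes overlapped between the ages, with log2 fold changes of -0.12 (95% interval -0.82 to 0.58) and 0.04 (-0.72 to 0.81), and of 0.07 and 0.33 without P2 control 1.

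The last question was whether extra MEIS1 or MEIS2 moved the factors. No member passed the test in any of 9 comparisons of all MEIS libraries with controls, nor for any single construct in progenitors or neurogenic cells. The constructs themselves were seen in progenitors, where Meis1 rose over the 6 MEIS libraries by a log2 fold change of 1.87 at P2 (edgeR adjusted p 0.00417) and 2.17 at P5 (adjusted p 3.19e-04), and Meis2 by 1.63 (0.0455) and 3.26 (1.98e-05). Single-construct comparisons and those of all MEIS libraries share their control libraries. The counts below follow the titles. With groups taken from the barcodes, all MEIS libraries at P2 called 414 genes in progenitors, 1053 in neurogenic cells and 285 in rods. Few genes of any kind were called: in progenitors 0.0135% of 14849 at P2 and 0.0202% at P5, in neurogenic cells 0 of 13745 (1477 at an unadjusted p under 0.05, and 207 by DESeq2) and 0.00728%, in rods 0 of 14786 at both ages (1618 and 107 unadjusted, 158 and 1 by DESeq2), in amacrine cells 0 of 13097 at both (543 and 163 unadjusted, 1 and 0 by DESeq2), and in P5 bipolar cells 0.00678% of 14747 (1 gene, with 13 by DESeq2, 44 without P5 combination replicate 2, 1 without P5 combination replicate 1 and 0 without any other P5 library). The P5 progenitor count was 3, with 6 by DESeq2 and 5 without P5 control 3. In progenitors these were 0.00673% of genes for MEIS1 at either age, 0.0404% at P2 (6 genes, with 562 by DESeq2, 80 without TMM factors and 2557 without P2 MEIS2 replicate 1) and 0.00673% at P5 for MEIS2, and 0.0135% at either age for the combination. In neurogenic cells they were 0.00728% for MEIS1 at either age, 0 for MEIS2 at P2 (1860 unadjusted, and 474 by DESeq2) and P5 (428 and 0), and for the combination 0 at P2 (527 and 1) and 0.0218% at P5. The last is 3 genes, with 35 by DESeq2, 16 without P5 control 3, 19 without P5 combination replicate 2, 1 without P5 control 4, and 0 without P5 control 2 or P5 combination replicate 1. In P5 progenitors DESeq2 called 12 genes for the combination and 7 for MEIS2, and edgeR called 9 for the combination without P5 control 3 and 6 without P5 combination replicate 2. For MEIS2 at P2 in neurogenic cells, 19 genes were called without TMM factors and 1356 without P2 MEIS2 replicate 1. For all MEIS libraries against controls, the P2 counts rest on single libraries too: of all genes, 513 in neurogenic cells and 70 in rods were called without P2 control 1, and 761 in progenitors, 683 in neurogenic cells and 576 in rods without P2 MEIS2 replicate 1. Without P2 MEIS2 replicate 2 it was 1 in progenitors and 0 in neurogenic cells, rods and amacrine cells (edgeR; 1472, 1595 and 822 unadjusted), and no member was called in these comparisons in any of the 3 cases.

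**Figure D4:**
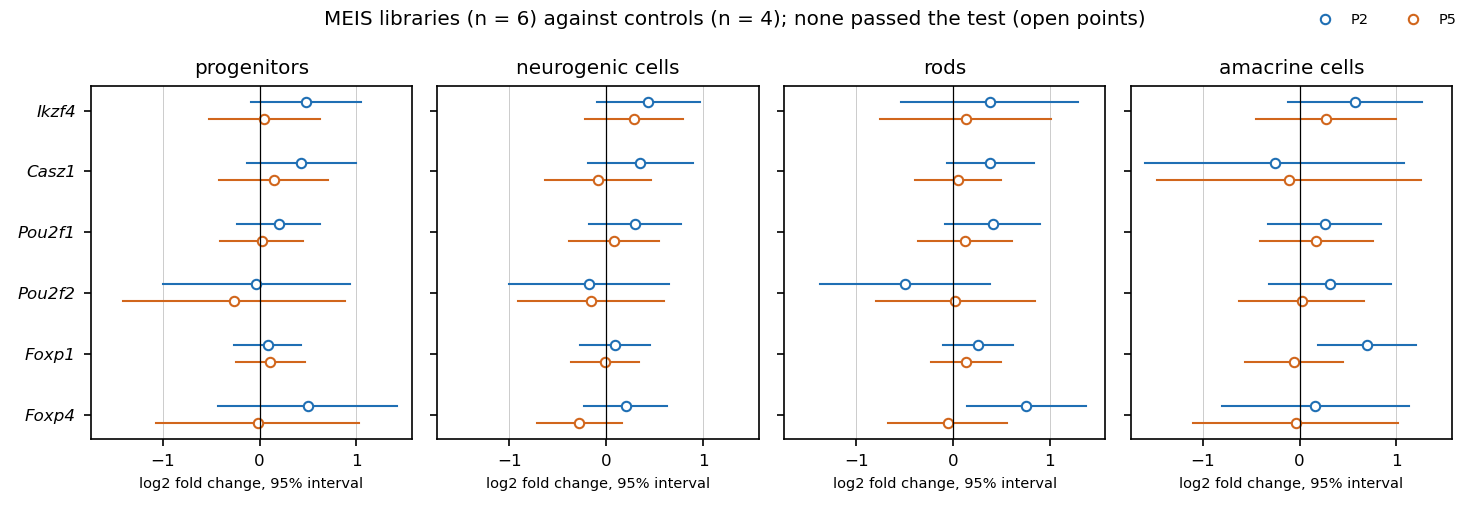
All MEIS libraries against controls, log2 fold change with 95% confidence interval for 6 members in 4 cell types, blue P2 and orange P5. All points are open, which marks an adjusted p of 0.05 or more, and Foxp4 in P2 rods is at 0.76.

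The medians of the 6 members differed with the library left out. At P2 the median log2 fold change was 0.31 in progenitors, 0.25 in neurogenic cells, 0.38 in rods and 0.29 in amacrine cells, beside -0.01, -0.01, -0.01 and -0.04 over all genes. Without P2 MEIS2 replicate 2 these medians were 0.11, 0.18, 0.31 and 0.26, and without P2 control 1 they were 0.58, 0.39, 0.61 and 0.52. At P5 it was 0.04, -0.05, 0.09 and -0.01, and 0.20 in bipolar cells. The change of the MEIS effect between the ages, tested in progenitors and neurogenic cells, was called for no gene (0 of 14849 with 331 unadjusted, and 0 of 13745 with 336; DESeq2 called 2 and 0). For Casz1 it was -0.28 (95% interval -1.07 to 0.51) in progenitors and -0.44 (-1.21 to 0.33) in neurogenic cells. Without P2 MEIS2 replicate 2 it was 0.04 (SE 0.30) and -0.38 (SE 0.39), and without P2 control 1 it was -0.48 (SE 0.38) and -0.61 (SE 0.37).

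Foxp4 in P2 rods came nearest to a shift seen in all libraries. Controls 1 to 4 were at 88.25, 70.4, 80.9 and 84.9 CPM, the MEIS1 libraries at 110 and 126, the MEIS2 libraries at 155 and 209, and the combination at 142 and 99.7. All 6 MEIS libraries lay above all 4 controls, as they did for 0.237% of genes, and for 1.18% of genes they lay below all 4. Foxp4 was graded over the rod clusters, and the shares of these clusters were not compared between MEIS and control libraries. Their part in this shift was not tested. The log2 fold change was 0.76 (SE 0.29, 95% interval 0.14 to 1.38), with an edgeR adjusted p of 0.3595 that ranged from 0.107 to 1.0 over 17 alternatives, and without P2 MEIS2 replicate 2 it was 0.66 (adjusted p 0.481) and without P2 control 1 it was 0.80 (adjusted p 0.179). At P5 the 6 MEIS libraries were at 16.8 to 54.4 CPM and the controls at 12.9 to 51.2, a log2 fold change of -0.05. The difference between the ages was not tested in rods.

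In P2 progenitors 1 library decided the values of MEIS2 against control. Casz1 was at 103 CPM in MEIS2 replicate 1 and 307 in replicate 2, Foxp4 at 6.575 and 63.0, and Ikzf4 at 13.4 and 32.7, against 49.4 to 130.5, 6.035 to 9.92 and 6.65 to 12.3 CPM in controls. The Foxp4 value of replicate 2 rested on 50 UMIs. The log2 fold changes were 2.02 for Foxp4, 1.08 for Casz1 and 1.20 for Ikzf4 (SE 0.58, 0.35 and 0.37; edgeR adjusted p 0.169, 0.1705 and 0.1705), where 0.0404% of genes were called. Without replicate 2 they were -0.24, 0.12 and 0.54 (adjusted p 0.941, 0.965 and 0.844), and without replicate 1 they were 2.98, 1.66 and 1.79 and all were called (2.34e-04, 0.00272 and 0.00799), as were 2557 of 15983 genes in that fit, which takes the lone library to vary like the other groups. Without P2 control 1 they were 2.19, 1.28 and 1.39 (adjusted p 0.0727, 0.0669 and 0.0644). DESeq2, which called 562 genes (3.78%), gave Casz1 1.16 (adjusted p 0.0377) and no adjusted p for the others. In the same cells the summed level of 9 rod markers was 1069 CPM in replicate 2 and 86.1 to 360 in the other P2 libraries, all 9 markers had a UMI in replicate 2, and their part in the result was not tested.

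**Figure D5:**
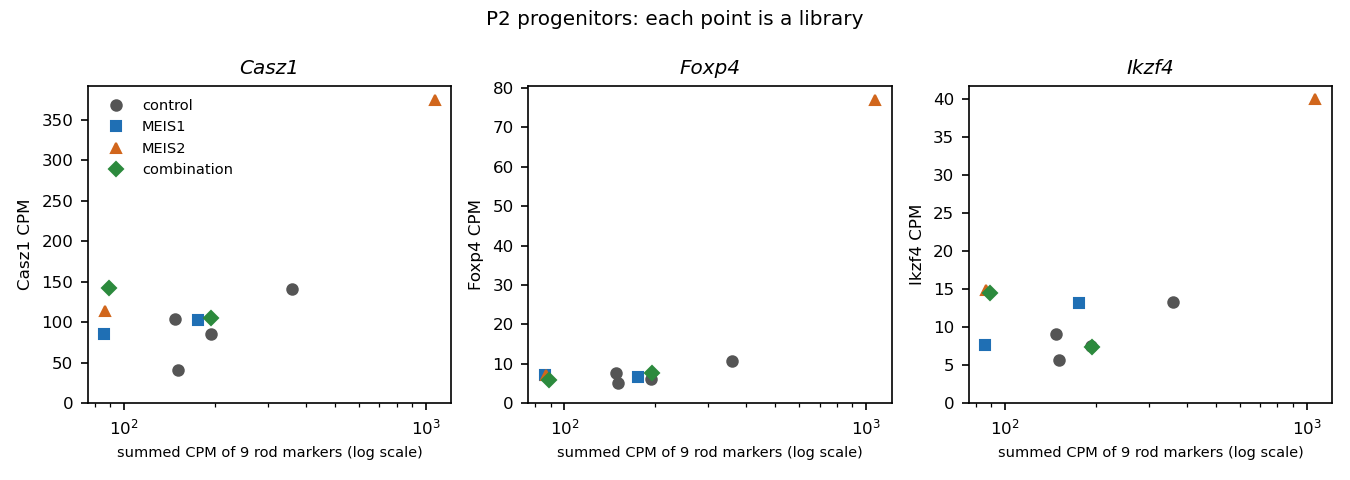
Casz1, Foxp4 and Ikzf4 in progenitors of the 10 P2 libraries (plain CPM) against the summed level of 9 rod markers in the same cells (CPM, log axis), 1 point for each library. P2 MEIS2 replicate 2 lies alone at a rod marker sum of 1069 CPM and at the highest value of each of the 3 genes.

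Over all MEIS libraries at P2, the log2 fold changes in progenitors were 0.43 for Casz1, 0.50 for Foxp4 and 0.48 for Ikzf4 (edgeR adjusted p 0.652, 0.770 and 0.607), and without P2 MEIS2 replicate 2 they were 0.11, -0.26 and 0.26. Without P2 control 1 they were 0.62, 0.66 and 0.68 (adjusted p 0.249, 0.5085 and 0.226). Foxp1 in P2 amacrine cells was at 104 to 228 CPM in the MEIS libraries and 73.4 to 125 in controls, and 4 of 6 MEIS libraries lay above every control. Its log2 fold change was 0.69 (SE 0.24) and its edgeR adjusted p 0.988, with 0.81 (adjusted p 0.673) without P2 MEIS2 replicate 2 and 0.88 (adjusted p 0.617) without P2 control 1. Casz1 in P2 amacrine cells went the other way, with 4 of 6 MEIS libraries below every control and 1 above. The same counts were found at P5. Casz1 was called at neither age, and 0 of 13097 genes were. In P2 amacrine cells 9 rod markers summed to 105.9 to 1310 CPM in MEIS libraries and 461.5 to 624.9 in controls. The highest P2 sum was that of MEIS2 replicate 2. At P5 the sums were 36.56 to 2177 and 512.9 to 2346 CPM. The part of rod RNA in these Casz1 values was not tested. In P5 bipolar cells, combination replicate 1 (53 cells) had 1 Pou2f2 UMI (1.395 CPM, 30.3 to 51.5 in the other 9 libraries) and Casz1 at 370 CPM (10.7 to 64.0 in the others), and these cells went against their type name. Their 9 bipolar markers summed to 127 CPM (1113 to 4831 in the others) and their progenitor markers to 336.5 (1054 to 1385), while neurogenic markers were at 1455 CPM (250 to 768), Müller glia markers at 812 (121 to 422) and rod markers at 271 (112 to 900). The comparison of all MEIS libraries gave Pou2f2 -0.28 and Casz1 0.65, and without that library -0.07 and 0.08.

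Genes whose levels followed a member over 47 control profiles (1 library and type each) were sought among 7110 genes by Pearson's r of log2 CPM. Profiles of 1 library share its depth, and those of 1 type share its cells, so the r describes these profiles only. Closest to Foxp4 were Hspa12a (r = 0.915), Lcorl (0.876) and Rbm24 (0.875), and closest to Casz1 were Foxo3 (0.881), Adcy2 (0.866) and Ptpn21 (0.866). Closest to Ikzf4 were Erc1 (0.919), Fez1 (0.905) and Kif5c (0.896), to Pou2f1 Ambra1 (0.911), R3hdm1 (0.905) and Kansl1 (0.904), and to Foxp1 Abi1 (0.823), Ints8 (0.791) and Rad23b (0.788). Ikzf1 and Pou2f2 had 10 UMIs in 0% and 68.1% of profiles, under the 80% required, and were left out.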

How the data were processed

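Single-cell RNA-seq of 20 libraries was analysed from the UMI counts the authors deposited for each gene and cell, with their cell types, clusters and library names. Per the series text, reads were processed with Cell Ranger on a modified mm10 reference with a GFP locus, and the submitters' processing notes name Seurat 5; filters on cells and doublet treatment are not given in the sources used here. The authors also deposited UMI and gene counts of each cell, which equalled the sums of the table in all 79009 cells, and the percent of mitochondrial UMIs.

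UMIs were summed over the cells of each library and type with at least 20 cells. Types were compared in plain CPM with no test. Groups were compared with edgeR 4.0.16 (R 4.3.3): quasi-likelihood test, a mean for each of 8 groups, TMM factors within a type, filterByExpr, Benjamini-Hochberg adjustment over all genes tested, threshold 0.05. The script was tested on simulated data. DESeq2 1.42.0, other scalings and filters, and leaving out each library were alternatives. The members are always named, as are their paralogs and Meis1, Meis2 and GFP; of other lists, up to 3 called genes with the largest change in a comparison are named, and any named beyond these (Hmga2, Apoe, the NuRD and Polycomb subunits, cluster genes) were picked with their values in view. Values of 2 listed genes are not reported here. The members and lists were chosen with earlier results of these data known. Intervals are 95% confidence intervals, and the limit for a count of 0 covers counting error only. Promoter windows are from RefSeq.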

Additional observations from a re-analysis of the deposited data

Results flagged for a closer look

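Of 54 groups of 4 control libraries, 2 held a library far from the other 3, measured as its gap to the nearest over the whole range; chance gives about 1 in 20 such groups. Foxp1 in progenitors was at 55.08 CPM in P5 control replicate 1 and at 61.38 to 62.46 in the others. Foxp4 in amacrine cells was at 45.1 CPM in P2 control replicate 4 and at 13.32 to 15.55 in the others.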

How the results depend on the processing

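Over 27 comparisons the count of members called was recomputed 392 times and moved in 4 comparisons. For P5 against P2 in controls it was 0 in progenitors (1 with DESeq2 and 1 with the groups compared only, both Foxp4, 1 with the replicate block, Foxp1, and 0 to 1 with a library left out), 2 in neurogenic cells (0 without TMM factors, 1 with the replicate block, 0 in cluster 4 only, 0 to 2 with a library left out) and 1 in rods (0 in cluster 0 only and 0 in cluster 2 only). For MEIS2 at P2 in progenitors it was 0 (1 with DESeq2, 0 to 3 with a library left out). The cause was not tested. Of the members called, all 52 recomputed log2 fold changes kept their sign, and of those not called 265 of 2297 took the opposite sign and 8 were called under an alternative. No label states whether same-numbered libraries shared an animal or day. These libraries correlated at -0.232 to 0.495 in P2 progenitors, -0.147 to 0.482 in P2 neurogenic cells, 0.031 to 0.405 in P5 progenitors and 0.064 to 0.487 in P5 neurogenic cells. Not every pair passed 0.1, and the block pairs libraries by number alone. With the block, Casz1 in neurogenic cells had an edgeR adjusted p of 0.00192, Foxp4 0.0513, and Foxp1 in progenitors 0.0388. Of all genes, P5 against P2 called 1949 in rods (3005 with the replicate block) and 52 in amacrine cells (192 with DESeq2, 134 with the block, 7 with the groups compared only, and 237, 572, 8 and 5 in the amacrine clusters alone). With a library left out these counts were 1573 to 3214 in progenitors, 856 to 1540 in neurogenic cells, 1124 to 2315 in rods and 8 to 155 in amacrine cells. With groups taken from the cell barcodes, all MEIS libraries against control at P2 called 414 genes in progenitors, 1053 in neurogenic cells and 285 in rods, in place of 2, 0 and 0. Without P2 MEIS2 replicate 1 the same counts were 761, 683 and 576, and without P2 control 1 they were 5, 513 and 70. MEIS2 at P2 in progenitors called 6 genes (562 with DESeq2, 80 without TMM factors, 2557 without P2 MEIS2 replicate 1 and 1 without any other P2 control or MEIS2 library). At P5 the combination called 3 genes in neurogenic cells (35 with DESeq2, 122 with the replicate block, 0 to 19 with a library left out) and 2 in progenitors (12, 18 and 1 to 9), and all MEIS libraries called 1 in bipolar cells (13 with DESeq2, 2 with the block, 5 without the filter on low counts, 0 to 44 with a library left out) and 1 in neurogenic cells (1, 8 with the block, 0 to 2). Depth limits Ikzf1, and Foxp4 and Pou2f2 in P5 progenitors.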
